A study of Mus musculus with 12 samples.

Results

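The 10 genes Tlr2, Tlr7, Ifi203, Ifi211, Mndal, Naip2, Naip5, Apol9a, Apol9b and Adar encode sensors of microbial or nucleic acid signals and related interferon-linked proteins. They were chosen by their listed peaks: innate sensor genes that carried N6-methyladenosine (m6A) peaks in induced neural stem cells (iNSCs) and none in the spermatogonial stem cells (SSCs) they came from. They are 10 of 12902 protein-coding genes in which at least 1 list had a peak. A peak was counted for a gene when it overlapped the gene's RefSeq span (GRCm38). m6A, a methylated adenosine found in mRNA, was mapped by antibody pull-down of poly(A) RNA fragments of about 200 nt followed by sequencing. The iNSC group held 3 libraries, from cells made from SSCs on laminin, with 1 µM retinoic acid in SSC medium for 24 h, then a mix of MEM/F12 and neurobasal medium with N2, B27, albumin, insulin, L-glutamine, β-mercaptoethanol, fetal bovine serum, 10 µM SB431542 and 20 ng/mL basic FGF. SB431542 inhibits TGF-β receptor kinases. They were set against 3 libraries of SSCs, the germ line stem cells of the testis, grown on inactivated STO mouse fibroblast feeders in MEMα medium with serum, LIF, EGF, GDNF, insulin, transferrin, putrescine, progesterone and 10 ng/mL basic FGF. Mouse strain, age and the number of animals are not given in the labels, and neither is whether replicates were separate cultures. Exon and UTR positions were not used here, so places are given within the gene span.

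Innate sensors recognise molecules of microbes or misplaced nucleic acids and switch on NF-κB, interferon or inflammasome signalling. Toll-like receptors do so at the cell surface or in endosomes, NAIP and other NLR proteins in the cytosol, and proteins of the PYHIN (p200) family bind DNA through HIN domains. Many of these genes are induced by interferon, and they are best known from macrophages and other immune cells. ADAR works on the opposite side, since its editing of double-stranded RNA keeps the cell's own RNA from being read as foreign.

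Each deposited list holds the peaks of 1 immunoprecipitated library, with a score per peak given by the authors. A score percentile here is the percentage of peaks in the same list with an equal or lower score, ties averaged, so it ranks a peak within its own list only. The iNSC lists held 13913, 16002 and 16060 peaks and the SSC lists 27597, 19728 and 24775. Sequencing depth is unknown, since the lists carry no read counts. A gene without a listed peak may lack the transcript or lack the mark, and the input libraries that would separate these were not analysed here. Likewise, fewer expressing cells and less RNA per cell cannot be told apart in such bulk libraries. Germ cell markers had a peak for 1, 1 and 2 of 12 genes in the iNSC lists and for 11, 9 and 10 in the SSC lists, which goes with the sample titles and against the cell type field of the labels, where the names are exchanged. Of 12 neural stem cell markers, 3 had a peak in each iNSC list (25.0%), against 6, 4 and 6 in the SSC lists (mean 44.4%). Over all protein-coding genes the means were 30.6% and 42.0%, so these markers do not set the iNSC lists apart. Pax6 had peaks in the 3 iNSC lists alone, whereas Sox2, Msi1 and Vim had them in the 3 SSC lists alone.

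All 10 genes had a peak in 3 of 3 iNSC lists and in 0 of 3 SSC lists. This pattern, called iNSC-only here, was shared by 2.13% of the 12902 genes (275 genes). The genes were picked for that pattern, so the count is a description and nothing is read from the difference. The iNSC lists held 25, 23 and 26 peaks in the 10 genes, 74 in all, and the SSC lists held 0. No SSC peak lay within 5000 bases outside 9 of the spans, and the SSC peak beside Adar belonged to the neighbouring gene Chrnb2. All 74 peaks lay on 1 strand per gene. That strand was the one given by RefSeq for the 9 genes with a listed gene start.

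**Figure D1:**
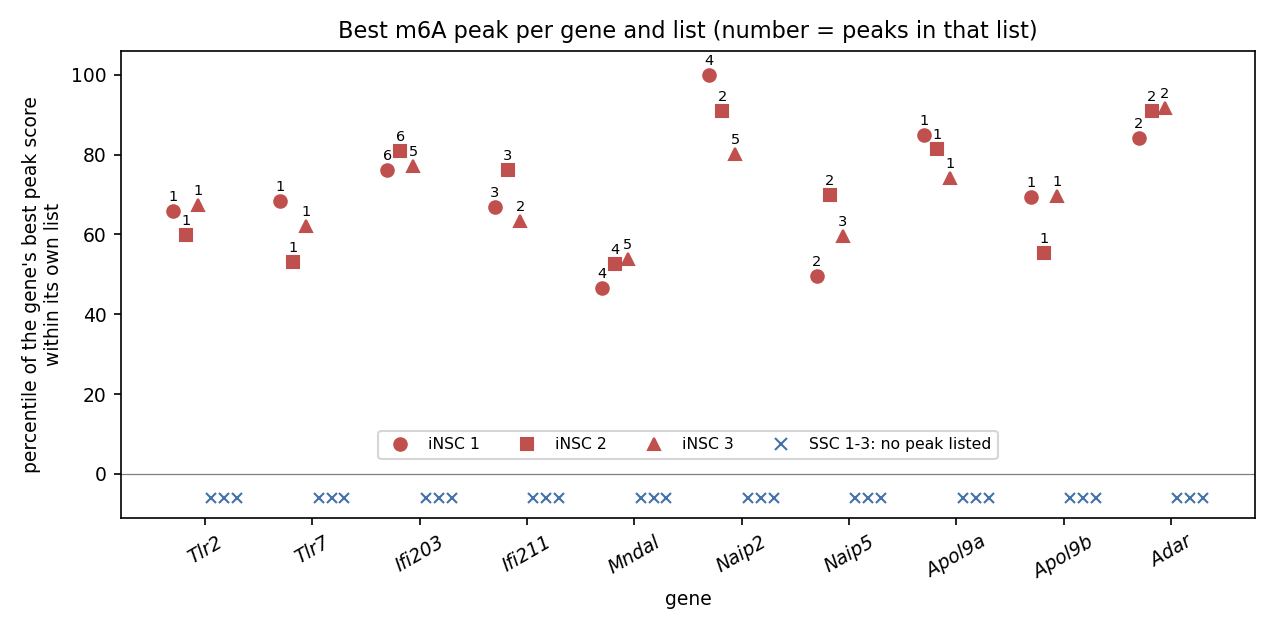
Percentile of the best-scoring peak of each gene within its own list (y axis, 0 to 100) for 10 genes (x axis), with symbols for the 3 iNSC lists, the number of peaks above each symbol and crosses under the zero line for the 3 SSC lists without a peak. Naip2 and Adar sit highest, with lowest values of 80.1 and 84.1, and Mndal and Naip5 lowest, with lowest values of 46.5 and 49.5.

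The Toll-like receptor genes Tlr2 (chr3:83836272-83841824) and Tlr7 (chrX:167303380-167330574) each carried 1 broad peak in the later part of the gene. Tlr2 encodes the cell-surface receptor for bacterial lipoproteins. Its peak on chromosome 3 (chr3:83836272-83838789, minus strand) was 2518, 2516 and 2516 bases wide in iNSC replicates 1, 2 and 3 and reached the last base of the gene span. The score percentiles were 65.8, 59.8 and 67.4 in the iNSC lists, and no peak was listed in the SSC lists. Tlr7 encodes the endosomal receptor for single-stranded RNA. Its peak (chrX:167304926-167308485, minus strand) had the same edges and the same width of 3560 bases in the 3 iNSC lists, and it ended 1546 bases before the end of the span. Its percentiles were 68.4, 53.1 and 62.1. Both genes thus held a single called peak, at a middle to upper rank, in every iNSC list. How many methylated adenosines such a wide peak covers was not examined. Their peaks were several times wider than the median peak of the iNSC lists, which was 433, 397 and 368 bases.

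The 3 PYHIN genes lie side by side on chromosome 1 on the minus strand. Mndal (chr1:173857215-173880382) is separated from Ifi211 (chr1:173896339-173913087) by 15956 bases, and Ifi211 from Ifi203 (chr1:173920400-173942866) by 7312 bases. The proteins carry a pyrin domain and 1 or more HIN domains, and relatives such as AIM2 bind cytosolic DNA. Ifi203 had the most peaks of the 10 genes, 17 over the iNSC lists (6, 6 and 5), in 7 regions of which 4 were called in all 3. The best ones were a peak of 1242 bases (chr1:173928275-173929516), with percentiles of 76.2, 80.9 and 74.0, and a peak of 285 bases (chr1:173937742-173938026), with percentiles of 73.9, 70.4 and 77.1. Both kept the same edges in the 3 lists. The region at the gene's end (chr1:173920401-173921451) was called in all 3 lists as well, but at percentiles of 19.4, 16.6 and 2.38.

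Mndal had 4, 4 and 5 peaks in the iNSC lists, with the lowest ranks of the 10 genes. Its best peak, of 122 bases (chr1:173874351-173874472), stood at percentiles of 46.5, 52.6 and 53.9. A peak of 285 bases (chr1:173875576-173875860) stood at 25.8, 27.9 and 36.9. Ifi211 had 3, 3 and 2 peaks. The peak at its gene start (chr1:173912814-173913122) was 276, 272 and 309 bases wide, with percentiles of 66.9, 76.0 and 63.3. Ifi211 also held a peak of 285 bases (chr1:173907597-173907881) in iNSC replicates 1 and 2, with percentiles of 66.2 and 62.9, which was not listed in replicate 3. Its remaining peak was only 21 to 23 bases wide.

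Some peaks of these copies matched in size. Peaks of 285 bases occurred in Ifi203, Mndal and Ifi211, and peaks of 122 bases in Ifi203 and Mndal. The 122-base and 285-base peaks began 1224 bases apart in Ifi203 and 1225 bases apart in Mndal. In duplicated genes such as these, reads can match more than 1 copy. How reads with several matches were handled is not given in the sources used here, so the split of signal between the copies is uncertain. The 285-base peak ranked higher in Ifi203 than in Mndal in 3 of 3 iNSC lists. The 122-base peak went the other way: it stood at 2.90 and 10.7 in Ifi203 in replicates 1 and 2 and was not listed in replicate 3, while in Mndal it was the best peak. The sequences around the gene starts, from RefSeq (GRCm38.p6), show how alike these copies are at that place only. Most of each window lies before the start, and likeness inside the peaks was not measured. The sequences are given 5′ to 3′ on the gene's strand from 110 bases before to 50 bases after an annotated start. Capitals mark the letters GAAANNGAA followed by a further A, the core of the interferon-stimulated response element to which the interferon-activated factor ISGF3 and IRF proteins bind. The windows are chr1:173942443-173942602, chr1:173880138-173880297 and chr1:173912997-173913156, all on the minus strand.
Ifi203: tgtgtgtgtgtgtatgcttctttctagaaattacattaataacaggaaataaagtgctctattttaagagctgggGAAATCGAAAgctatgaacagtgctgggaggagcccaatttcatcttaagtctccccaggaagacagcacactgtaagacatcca
Mndal: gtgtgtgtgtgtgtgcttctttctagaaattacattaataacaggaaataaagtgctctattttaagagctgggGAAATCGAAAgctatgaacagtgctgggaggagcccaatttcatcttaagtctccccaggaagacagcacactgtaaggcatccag
Ifi211: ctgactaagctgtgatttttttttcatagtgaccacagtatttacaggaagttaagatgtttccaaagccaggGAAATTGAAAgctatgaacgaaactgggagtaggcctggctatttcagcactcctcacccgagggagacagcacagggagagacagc

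Over the full RefSeq windows, from 250 bases before to 50 bases after the start, Ifi203 and Mndal were identical at 94.3% of 299 aligned positions, with a longest identical run of 139 bases. Ifi211 was less alike, with 57.7% identity to Ifi203 and 58.4% to Mndal, and a longest identical run of 13 bases with each. These values are not far above the 53.8%, with a longest run of 5 bases, of the unrelated genes Adar and Naip2. The motif of Ifi211 still stands at almost the same place. The motif began 35, 36 and 37 bases before the start shown in Ifi203, Mndal and Ifi211. Ifi203 and Mndal each have a further annotated start. The window there holds no match in Ifi203 and a match on the opposite strand in Mndal. The start peak of Ifi211 reached into its window in 3 of 3 iNSC lists, and a peak of Mndal did so at a second annotated start in replicate 3 alone.

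NAIP genes encode the cytosolic receptors that hand bacterial proteins to the NLRC4 inflammasome, NAIP2 for the inner rod of type III secretion systems and NAIP5 for flagellin. Naip2 (chr13:100144063-100202122) and Naip5 (chr13:100211735-100250930) are neighbours on the minus strand of chromosome 13, with 9612 bases between them. Naip2 had 4, 2 and 5 peaks in the iNSC lists. Its peak of 2244 bases (chr13:100160121-100162364) was the best of all peaks in the 10 genes in replicate 1, at a percentile of 99.9, and stood at 90.9 and 80.1 in replicates 2 and 3. The peak in replicate 2 had the score 3100, at which many peaks of a list are tied. The next peak, of 572 bases (chr13:100188831-100189402), stood at 55.7, 57.9 and 43.1. The NAIP genes are related copies, so the split of reads between them is uncertain. The other 4 regions of Naip2 were called in 1 or 2 lists, none above a percentile of 33.1.

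Naip5 had 2, 2 and 3 peaks. The wide one (chr13:100221527-100223564) was 1944, 1949 and 2038 bases wide, with percentiles of 49.5, 69.8 and 59.5, below the wide Naip2 peak in all 3 lists. A peak of 692 bases (chr13:100245632-100246323) stood at 44.0, 65.1 and 57.4. The order of replicates differed between the copies: replicate 1 was highest for the wide Naip2 peak and lowest for both shared Naip5 peaks. No peak width was common to both genes in any list, unlike in the PYHIN genes. The sequences around their gene starts are shown because peaks reached into them, in 2 of 3 iNSC lists for Naip2 and in 1 for Naip5. Capitals mark the longest run that both share, 34 bases, in the windows chr13:100202073-100202232 and chr13:100247287-100247446, minus strand. The full windows were identical at 66.7% of 303 aligned positions, against 53.8% of 318 for the unrelated genes Adar and Naip2.
Naip2: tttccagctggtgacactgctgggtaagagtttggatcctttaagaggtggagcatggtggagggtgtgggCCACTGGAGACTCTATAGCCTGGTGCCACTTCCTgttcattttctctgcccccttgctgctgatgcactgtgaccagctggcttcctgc
Naip5: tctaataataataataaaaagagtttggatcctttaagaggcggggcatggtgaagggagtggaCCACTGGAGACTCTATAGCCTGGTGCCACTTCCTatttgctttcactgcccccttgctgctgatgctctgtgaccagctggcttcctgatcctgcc

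Apol9a (chr15:77403789-77411080) and Apol9b (chr15:77729047-77736382) encode apolipoprotein L proteins of the mouse, and are a pair of nearly identical, interferon-induced copies on chromosome 15 in opposite directions, 317966 bases apart. Each had 1 peak in every iNSC list, over the last bases of its span. The Apol9a peak (chr15:77403789-77405082, minus strand) was 1294, 1140 and 1294 bases wide, with percentiles of 84.8, 81.3 and 74.1. The Apol9b peak (chr15:77735089-77736382, plus strand) was 1294 bases wide in all 3 lists, with percentiles of 69.5, 55.3 and 69.6. Apol9a thus ranked above Apol9b in each of the 3 lists, by margins that varied with the replicate. The windows around their starts (chr15:77411031-77411190, minus strand, and chr15:77728962-77729121, plus strand) hold a pair of overlapping matches to the same motif on the opposite strand, in capitals. The annotated starts are not at the same base of the shared sequence, and the full windows were identical at 278 of 278 aligned positions. The peaks lie at the other end of the genes, and identity inside them was not measured. How the m6A signal divides between Apol9a and Apol9b is uncertain.
Apol9a: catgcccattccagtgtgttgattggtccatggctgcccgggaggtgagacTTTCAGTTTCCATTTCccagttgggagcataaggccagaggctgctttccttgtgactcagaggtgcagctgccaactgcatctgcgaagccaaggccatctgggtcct
Apol9b: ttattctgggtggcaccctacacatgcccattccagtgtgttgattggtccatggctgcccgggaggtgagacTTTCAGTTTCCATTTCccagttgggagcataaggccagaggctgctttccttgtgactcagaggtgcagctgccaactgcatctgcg

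**Figure D2:**
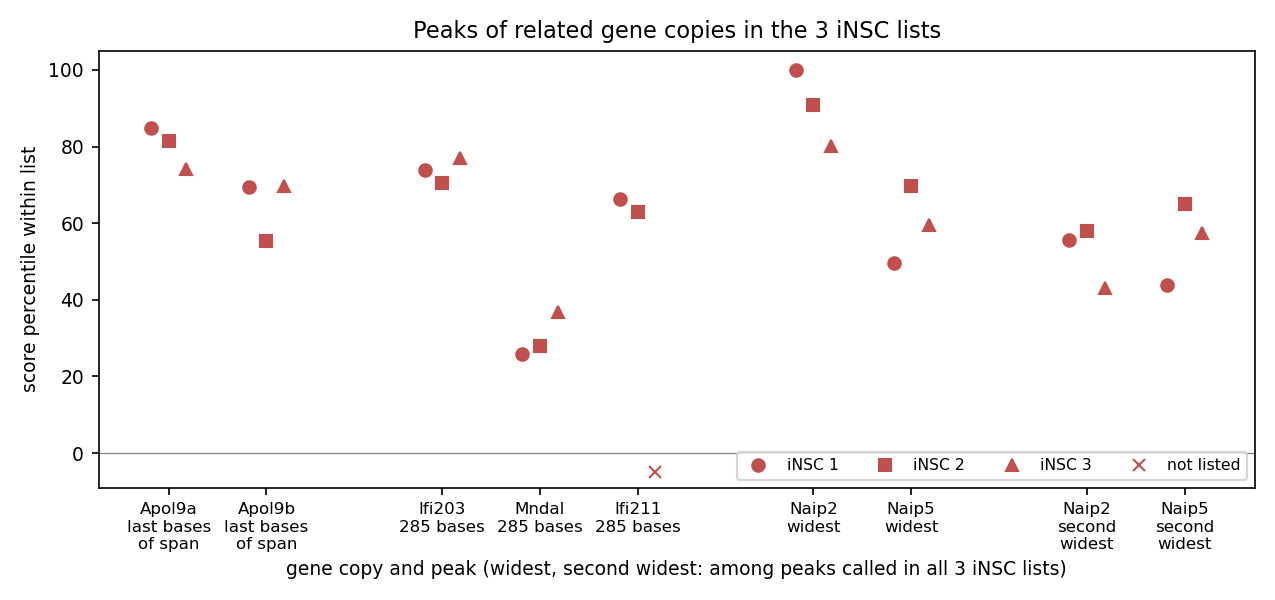
Score percentile within list (y axis) of peaks in related gene copies (x axis), with a symbol for each of the 3 iNSC lists and a cross where the peak was not listed. The 285-base peak of Mndal sits between 25.8 and 36.9, under that of Ifi203 in every list (the 122-base peak, not drawn, ranks the other way), and the Apol9a peak sits above the Apol9b peak in every list.

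Adar (chr3:89714469-89753455) encodes the enzyme that turns adenosine into inosine in double-stranded RNA. It had 2 peaks in each iNSC list, both with the same edges in all 3. The inner peak of 1432 bases (chr3:89734842-89736273, plus strand) stood at percentiles of 84.1, 90.9 and 91.8, with the tied score 3100 in replicates 2 and 3. The second peak, of 2527 bases (chr3:89750929-89753455), ran to the last base of the span and stood at 1.41, 30.6 and 57.5. It overlaps Chrnb2, a nicotinic receptor gene whose span begins there, by 8 bases, and was given to Adar by its strand. The inner peak kept a high rank in every list, while the end peak was near the bottom of the list in replicate 1 and above the middle in replicate 3. RefSeq gives 3 starts for Adar. The window at the innermost of them (chr3:89730608-89730767, plus strand) is shown because it is the only one of the 3 with an interferon motif. Capitals mark GAAANNGAA without the further A, which begins 34 bases after the start.
Adar: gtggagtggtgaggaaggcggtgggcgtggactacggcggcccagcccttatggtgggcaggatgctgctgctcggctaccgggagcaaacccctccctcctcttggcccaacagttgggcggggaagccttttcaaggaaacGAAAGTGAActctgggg

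**Figure D3:**
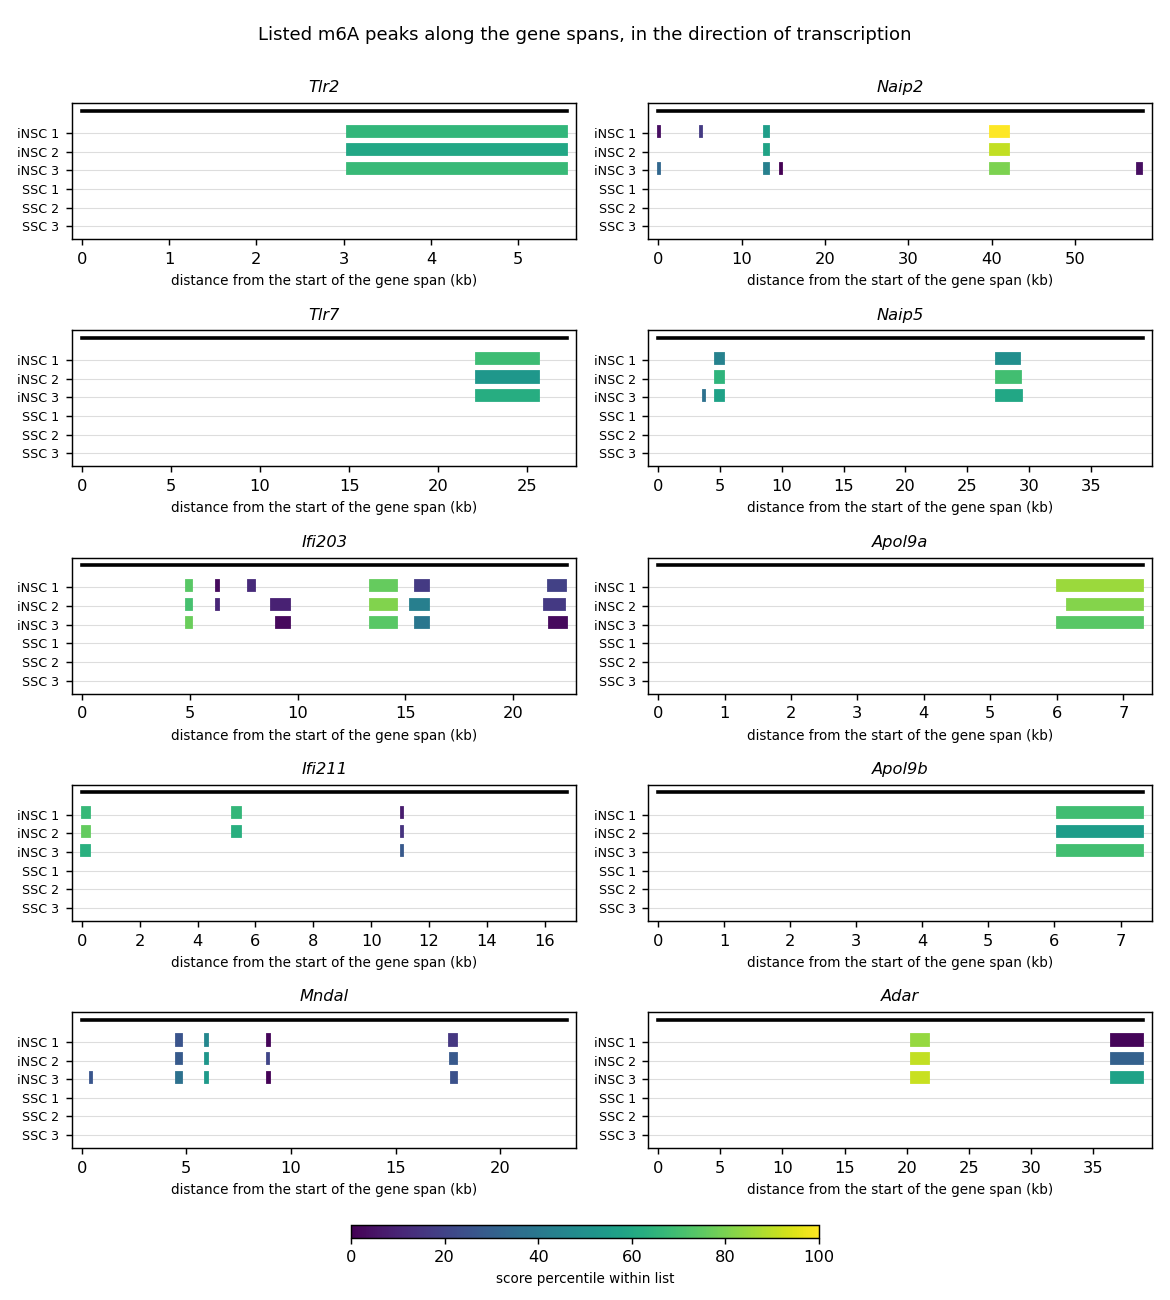
Peaks listed in each gene, as boxes along the gene span in the direction of transcription (x axis, kb from the start of the span; y axis, the 3 iNSC lists above the 3 SSC lists), with colour for the score percentile within list and peaks under 0.4% of the span drawn at that width. The peaks of Tlr2, Apol9a and Apol9b end with the span, the best peaks of Naip2 and Adar lie inside it, and the SSC rows are empty.

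In the windows of 9 of the 10 genes (Tlr7 is not in the window table), GAAANNGAA with a further A, on either strand, occurred for 5: Ifi203, Ifi211, Mndal, Apol9a and Apol9b. It occurred for 3.94% of the 17491 genes with a window and in 3.35% of the 21262 windows. GAAANNGAA alone, which every longer match contains, occurred for 7 genes, with Adar and Naip2 added, and for 9.43% of all genes. The copies share their sequence, so these are not independent matches, and a match is not a binding site. The other 2 motifs searched were an NF-κB core (GGG, any 5 letters, CC) found for 7 of the 9 genes and 59.8% of all genes, and TTCNNNGAA, a STAT core found for Adar and 8.92% of all genes.

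Among the 275 iNSC-only genes, the 10 sensor genes ranked between 17 and 108 by score. Ordered by the lowest of the 3 best-peak percentiles, Adar stood at rank 17, Naip2 at 23, Ifi203 at 34, Apol9a at 38, Ifi211 at 67, Tlr2 at 73, Apol9b at 84, Tlr7 at 88, Naip5 at 99 and Mndal at 108. The median of that value was 61.5 for the 10 genes, 38.7 for the other 265 and 50.1 for all genes with an iNSC peak, taken over the iNSC lists in which a gene had one. The median number of peaks per gene and list was 2.17, 1 and 1.33, and a gene with more peaks has more chances of a high best peak. Over single peaks of the 10 genes, the median percentile was 46.5, 55.3 and 48.5 in the 3 iNSC lists. The share of peaks with a score of at least 3100 was 5.41% in the 10 genes, 7.83% in the other 265 and 16.3% in all genes with an iNSC peak. Ifi203 had the highest mean number of peaks of all 275, 5.67 ± 0.577 per list (SD, n = 3), followed within the group by Mndal with 4.33 ± 0.577, which was at rank 5. The bases covered were 3959 in each list for Adar, 3847 ± 479 for Ifi203 and 498 ± 145 for Ifi211 (SD, n = 3). Of the 30 regions of the 10 genes, 20 were called in 3 of 3 iNSC lists (66.7%), close to the 67.9% of the other iNSC-only genes and above the 52.8% of all genes with an iNSC peak. Of those 20, 11 had identical edges in the 3 lists (55.0%, against 41.0% and 63.4%). Genes were called iNSC-only by a peak in each list, which by itself raises such shares, and no test was made.

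**Figure D4:**
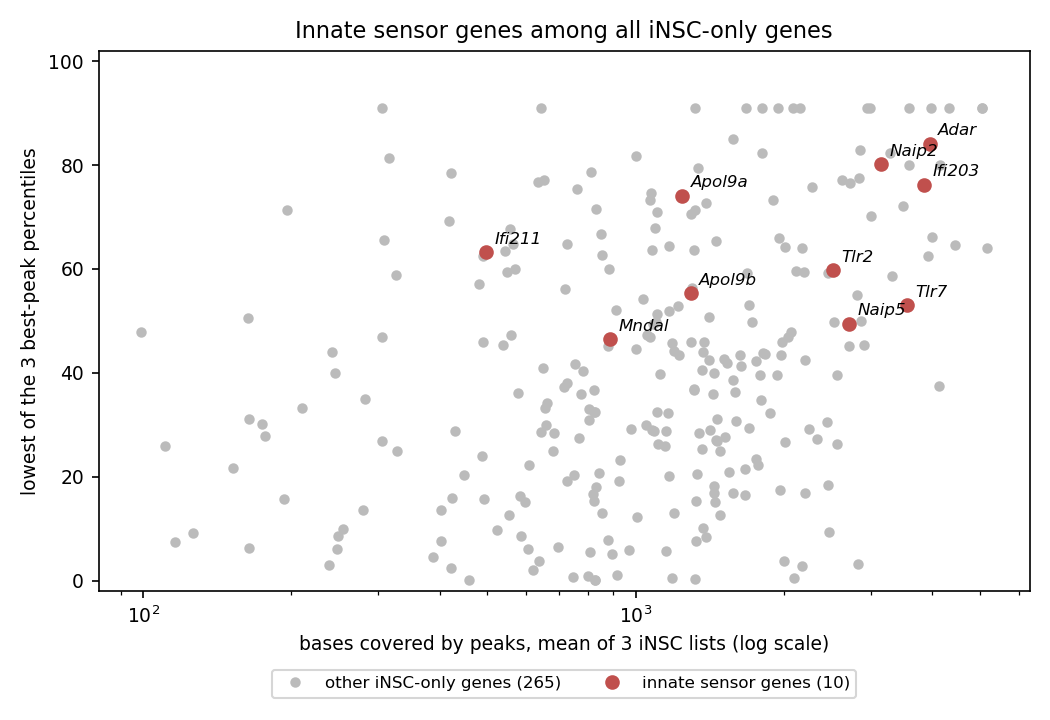
Lowest of the 3 best-peak percentiles (y axis) against the bases covered by peaks, as the mean of the 3 iNSC lists (x axis, log scale), for the 10 innate sensor genes and the other 265 iNSC-only genes. The 10 genes lie at or above 46.5 on the y axis. The other genes span from near 0 to 90.9, and the highest points are theirs.

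The relatives of these genes were then examined in lists of sensor and interferon genes. In the toll-like receptor list, 6 of 12 genes had a peak in each iNSC list, against 3, 2 and 4 in the SSC lists. Tlr3, the endosomal receptor for double-stranded RNA, had a peak in all 6 lists. Tlr5, the flagellin receptor, had percentiles of 74.8, 69.6 and 74.6 in the iNSC lists, against a single peak at 15.6 in SSC replicate 3, so it missed the iNSC-only call by 1 low-ranked peak. Tlr4 had a peak in every iNSC list and in SSC replicate 3, and Tlr6 in every iNSC list and in SSC replicates 2 and 3. In the list of co-receptors, adaptors and kinases that carry the Toll-like receptor signal, 17 of 18 genes had a peak and 8 had one in all 6 lists, among them Ticam1, Traf3, Traf6 and Tab2. Unc93b1, which carries TLR7 and other nucleic acid receptors to endosomes, was the 1 iNSC-only gene there. The share with a peak was 66.7% ± 5.56 in iNSC and 61.1% ± 11.1 in SSC lists (SD, n = 3 each).

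Of 13 PYHIN genes, 7 had a peak, and every one of the 7 had it in more iNSC than SSC lists. Per list, 6, 6 and 7 genes had a peak in iNSCs and 2, 1 and 1 in SSCs. Ifi203, Ifi211 and Mndal are 3 of the 7, and the other genes were named after their values were seen. Aim2, the cytosolic DNA sensor, had 4 peaks in each iNSC list, with its best at the tied score 3100 (percentiles 92.3, 90.9 and 91.8), and 1 peak in SSC replicate 1 at 13.7. Ifi202b, also of this family, had 3, 3 and 2 iNSC peaks, with best percentiles of 81.6, 90.9 and 91.8, and 1 peak each in SSC replicates 2 and 3 at 22.8 and 18.6. Ifi204 had 5, 6 and 3 iNSC peaks, with best percentiles of 70.7, 82.3 and 69.8, and 3 peaks in SSC replicate 1, with the best at 37.4. Ifi207 was listed in iNSC replicate 3 alone. Reads can be shared among these copies too.

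Among 24 NLR and inflammasome genes, 16 had a peak, in 12, 12 and 11 genes per iNSC list and in 3, 4 and 8 per SSC list. The iNSC-only genes were Naip2, Naip5, Nlrc5, Nlrp1b and Nod2. Nod2, the receptor for bacterial muramyl dipeptide, had 4 peaks in each iNSC list, with best percentiles of 62.5, 69.2 and 73.6. Nlrc5, a regulator of MHC class I genes, stood at 70.3, 70.1 and 73.6, and Nlrp1b, an inflammasome sensor, at 38.0, 55.8 and 49.7. Naip6, a further flagellin receptor, had 3 peaks in each iNSC list, with best percentiles of 65.9, 71.8 and 63.8, and 1 peak in SSC replicate 2 at 30.6. Nlrc4, the partner of the NAIP proteins, and Pycard and Nlrp3 had no peak in any list. Of 12 apolipoprotein L genes, 4 had a peak in each iNSC list and 2, 0 and 1 in the SSC lists. Apol7a was iNSC-only beside Apol9a and Apol9b, with percentiles of 82.3, 82.4 and 91.8.

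Taking these 4 families without the 10 genes, a grouping made after the data were seen, 28 of 52 genes had a peak. More iNSC than SSC lists held a peak for 18 (64.3%) and fewer for 7 (25.0%), against 17.5% and 48.2% of all genes with a peak. Over all the sensor and interferon lists without the 10 genes, these shares were 33.3% and 40.5% of 111 genes. Of the 111, 7 were iNSC-only (6.31%) and 10 SSC-only (9.01%), against 2.13% and 11.4% of all genes with a peak. In the 4 families, 4 of the 28 were iNSC-only (14.3%) and 0 SSC-only. No list test was made, and copies within a family share sequence.

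In the lists of cytosolic RNA and DNA sensing, fewer genes had a peak in iNSC than in SSC lists, as over all genes. Of the 14 RNA sensing genes with a peak, 3 had it in more iNSC lists and 7 in more SSC lists, shares near the 17.5% and 48.2% of all genes with a peak. Of the 14, 0 were iNSC-only and 2 SSC-only, and 6, 8 and 7 genes had a peak in the iNSC lists, against 12, 9 and 11 in the SSC lists. Ifih1, which encodes the double-stranded RNA sensor MDA5 whose activation ADAR restrains, was SSC-only, with 3, 1 and 4 peaks and percentiles of 75.9, 50.4 and 76.3. It thus showed the opposite list pattern to Adar. Adad2, a testis relative of Adar, was also SSC-only, and Adarb1, the second editing enzyme, had 1, 0 and 1 peaks in the iNSC lists and 3 in each SSC list. Of 11 cytosolic DNA sensing genes, 4, 5 and 4 had a peak in the iNSC lists, against 6 in each SSC list. Cgas had a peak in all 6 lists and its downstream partner Sting1 was iNSC-only, at percentiles of 13.1, 33.2 and 14.9. Interferon receptor and JAK-STAT genes had a peak in 66.7% ± 5.56 of the list in iNSCs and 75.9% ± 14.0 in SSCs (SD, n = 3 each), and 8 of 17 genes with a peak, among them Ifnar1, Ifnar2, Jak1 and Jak2, had it in all 6 lists.

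Interferon-stimulated genes, the common targets of interferon signalling, had a peak for 10, 9 and 12 of 36 genes in the iNSC lists and for 19, 12 and 18 in the SSC lists. Trim30a alone was iNSC-only, and Gbp2, Gbp3, Igtp, Irgm2 and Xaf1 were SSC-only. Gbp3, a guanylate-binding protein gene, stood at percentiles of 93.3, 96.1 and 97.6 in the SSC lists. Over all protein-coding genes, 30.6% ± 1.26 had a peak per iNSC list and 42.0% ± 4.51 per SSC list (SD, n = 3 each).

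Innate sensors are best known from immune cells, though not limited to them, so immune cell markers were looked at beside them. Of 20 markers, 1 had a peak in each iNSC list, against 5, 1 and 2 in the SSC lists. The iNSC gene was Cx3cr1, the chemokine receptor of microglia, at percentiles of 20.3, 34.2 and 22.3, with no SSC peak. The defining markers Ptprc, Cd68, Adgre1 and Csf1r had no peak in any list, which does not tell an absent transcript from an unmethylated one. Feeder fibroblast markers had a peak for 7, 7 and 8 of 14 genes in the iNSC lists and 9, 6 and 11 in the SSC lists. The part of other cell types in the sensor gene peaks was not tested.

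**Figure D5:**
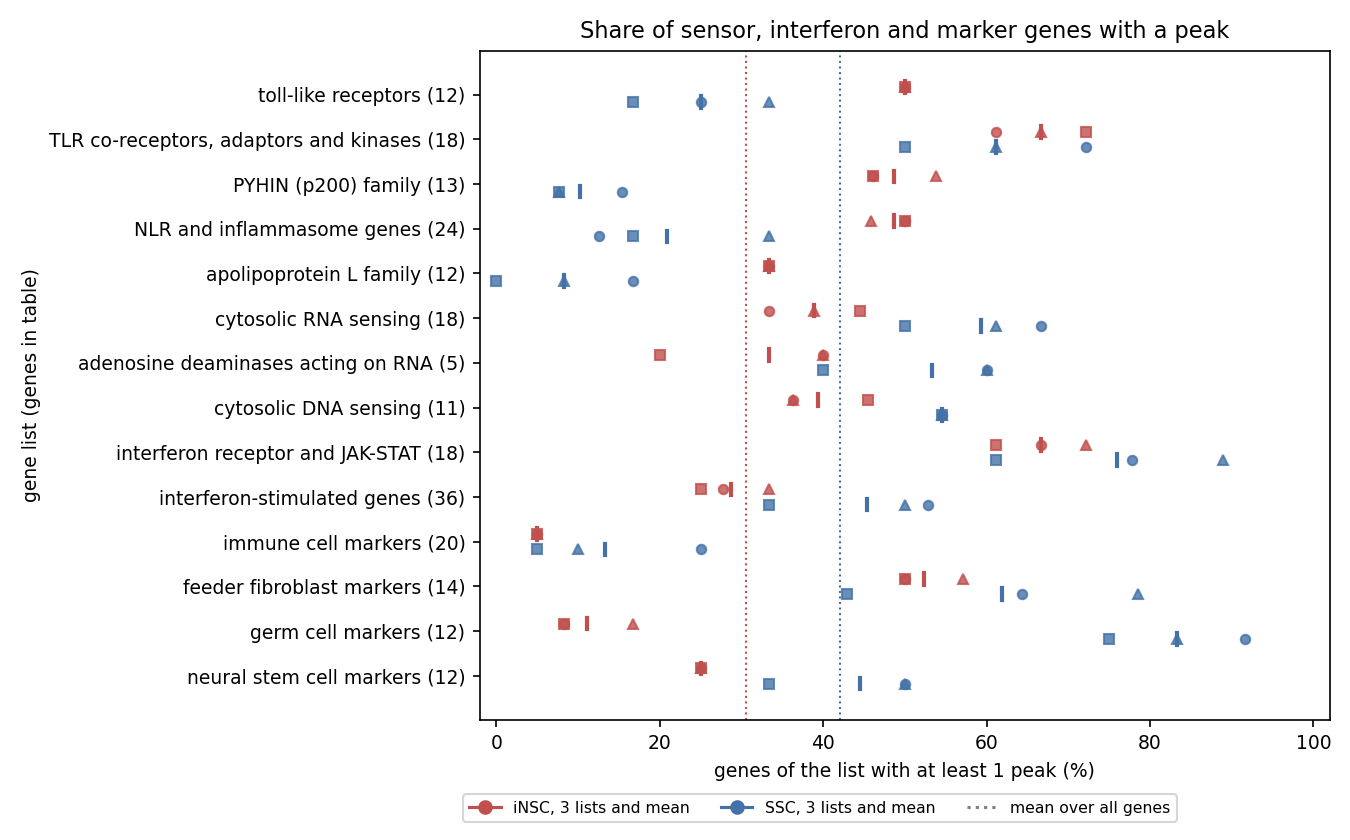
Percentage of the genes of each list with at least 1 peak (x axis) for 14 gene lists (y axis, number of genes in brackets), with the 3 iNSC lists and their mean above the 3 SSC lists and their mean, and dotted lines at the means over all protein-coding genes. The iNSC symbols lie to the right of the SSC symbols for the toll-like receptor, PYHIN, NLR and apolipoprotein L lists, and to the left for cytosolic RNA sensing and germ cell markers.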

How the data were processed

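Peak lists of 6 m6A immunoprecipitation libraries (3 iNSC, 3 SSC) were used, and the 6 input samples were not analysed here. Per the submitters' processing notes, reads were processed with HISAT2 2.0.4 and cutadapt 1.9.3, with mm9 as the build. Not given in the sources used here: the peak caller, its threshold and how reads with several matches were treated. The authors deposited a score for each peak, of no stated unit, from 50 upward. Many peaks are tied at 3100, and 15.0%, 17.6% and 16.1% of iNSC peaks and 3.73%, 7.56% and 4.50% of SSC peaks reached it. Peak edges meet gene edges of GRCm38.p6, not mm9, so coordinates are on GRCm38, 1-based.

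Each peak was given to the RefSeq protein-coding gene it overlapped by at least 1 base (21896 genes), and a peak over several genes to the one whose other peaks lay on its strand in over 90% of cases. A gene with a peak in 3 of 3 lists of one group and 0 of 3 of the other was called iNSC-only or SSC-only. The placement was tested on simulated data. Samples were grouped and numbered by their titles, and the cell type field of the labels was not followed. Promoter windows came from RefSeq, and identity from global alignment (Biopython 1.88).

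The 10 genes, and the gene lists, were chosen with earlier results of these data known. All 10 genes are named. A rule picked up to 4 further genes per list, the best ranked among genes called in 3 lists of 1 group alone or in all 6. Not all of these are named. Left out were, among others, Trim25, Dhx9, Dhx36, Ikbke, Irgm1, Parp9 and Parp14, with a peak in all 6 lists, and the SSC-only Irf5. Many genes outside the rule were named after their values were seen, so the named genes are not a neutral sample of the lists. No test over samples was made, since presence, number, width and score of peaks all belong to the contrast that chose the genes. Alternatives were the better-scoring 50% of each list, equal list length (13913 peaks), 50% of the peak inside the gene, peaks over 1 gene only, a peak in 2 of 3 libraries, and leaving out each library.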

Additional observations from a re-analysis of the deposited data

How the results depend on the processing

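All 10 genes were iNSC-only at equal list length, with 50% of the peak inside the gene and with peaks over 1 gene only. No SSC peak touched these genes and such settings only take peaks away, so the SSC side could not change. Equal length took low-ranked peaks from iNSC replicates 2 and 3, where each gene's best peak stood at a percentile of 52.6 or above. These 3 results thus say little of stability. A peak in 2 of 3 libraries and leaving out a library also gave 10, which the choice of the genes fixes and which says nothing of stability. In the better-scoring 50% of each list 8 of 10 were iNSC-only. Mndal and Naip5 then had a peak in 66.7% of iNSC libraries, since their best peaks in replicate 1 ranked below that limit. The background moved more. The iNSC-only share of all genes with a peak was 4.47% in the better-scoring 50% and 6.79% at equal length, against 2.13% with all peaks. Genes called iNSC-only numbered 419 in the better-scoring 50%, 719 at equal length and 295 to 505 without 1 library (505 without SSC replicate 1, 486 without SSC replicate 3), and genes called SSC-only numbered 954, 739 and 1519 to 2271 (the highest without SSC replicate 2), and 2932 with a peak in 2 of 3 libraries. Equal length removes mainly SSC peaks, which favours iNSC-only calls by construction. Over the sensor and interferon lists, 26 genes were iNSC-only at equal length (17 with all peaks), and SSC-only genes numbered 4 in the better-scoring 50%, 3 at equal length and 19 with 2 of 3 libraries (10 with all peaks). Without 1 library, these were 17 to 21 and 10 to 14. PYHIN genes called iNSC-only numbered 5 without SSC replicate 1 and 3 with all libraries, and Toll-like receptors 4 without SSC replicate 3 and 2 with all. No paired analysis was possible because no result comes from a test over samples, as the peaks compared had chosen the genes. The lists hold no read counts, so what depth limits is unknown.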

Other observations

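At equal list length the 16 genes outside the 10 that were iNSC-only in the sensor and interferon lists included Aim2, Ifi202b, Ifi204, Tlr5, Naip1, Nlrc3, Nlrx1 and Ifit2, which were not iNSC-only with all peaks. In SSC lists the peaks of Aim2 and Tlr5 ranked at percentiles of 13.7 and 15.6, so the shortening of those lists took them out. Aim2, Ifi202b, Ifi204, Naip6 and Nod2 had a peak in all 3 iNSC libraries, while the cytosolic RNA sensing genes Ddx58, Oasl2 and Ddx60 had peaks in 2, 0 and 0 iNSC libraries and in 3, 2 and 2 SSC libraries. Samhd1, which degrades nucleotides and limits viral replication, had 1, 1 and 0 peaks in the iNSC lists and 5, 4 and 6 in the SSC lists. These genes were picked after their values were seen, and the pattern was not tested.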
